A study of Mus musculus with 2 samples.

Results

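The genes described here are 10 paternally expressed imprinted genes of the mouse that lie outside the large imprinted clusters: Peg3, Usp29, Mest, Plagl1, Nnat, Peg10, Sgce, Impact, Inpp5f and Zdbf2. They were taken as a list of names, matched by symbol and gene identifier, and all 10 were found among 55536 annotated genes. The tissue was the left cerebral cortex, from male mice of the hybrid B6CASTF1/J, a cross of C57BL/6J and CAST/EiJ, taken at 10 days of age and obtained from The Jackson Laboratory. Each of the 2 libraries, called replicate 1 and replicate 2, was made from 300 ng of total RNA with ERCC spike-ins, which are synthetic control RNAs. They form 1 untreated group with no mutant allele named, so no test between groups exists and no p-value is given. Animal numbers in the labels differ while the donor identifier is shared, so the spread between the libraries may be smaller than that between unrelated animals.

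Imprinted genes carry a methylation mark laid down in the egg or the sperm, and in at least some tissues only 1 parental copy is transcribed. In paternally expressed genes the maternal copy is the silent one. Several genes of this kind act in growth, feeding and maternal care, and many are expressed in neurons. Imprinting often belongs to a promoter and not to a whole gene, so transcripts that start elsewhere in the same gene can be read from both copies. The deposited tables do not separate the alleles, and all values below are sums over both parental copies.

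Sequences are shown first for the transcript forms and start regions on which the results turn. The 3 Inpp5f transcripts shown enter the same late coding exon, Inpp5f-203 and Inpp5f-209 from the same exon end and Inpp5f-201 from another exon. Their coding bases are shown up to 30 bases into the shared exon (plus strand, GRCm38, GENCODE M21; for Inpp5f-203, spliced from chr7:128689242-128690656), with the bases before that exon in capitals. Inpp5f-201 is the full-length form, Inpp5f-203 and Inpp5f-209 start inside the gene, and Inpp5f-203 has only 5 coding bases before the shared exon.
Inpp5f-201: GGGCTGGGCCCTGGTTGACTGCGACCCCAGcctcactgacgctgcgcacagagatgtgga
Inpp5f-203: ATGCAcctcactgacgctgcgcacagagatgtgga
Inpp5f-209: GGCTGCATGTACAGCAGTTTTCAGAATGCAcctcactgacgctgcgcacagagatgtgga

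Mest transcripts differ at the coding start. The first coding bases of 3 forms (chromosome 6, plus strand, GRCm38, GENCODE M21) are shown, with the bases before the shared second exon of Mest-211 in capitals. Mest-210, from an upstream start, has its start codon in the shared exon, within the stretch chr6:30740671-30740700.
Mest-211: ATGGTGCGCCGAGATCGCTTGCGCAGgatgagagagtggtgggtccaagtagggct
Mest-202: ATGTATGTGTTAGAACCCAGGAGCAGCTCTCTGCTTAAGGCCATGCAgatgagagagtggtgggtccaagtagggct
Mest-210: atgagagagtggtgggtccaagtagggctc

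Sgce, the gene of epsilon-sarcoglycan, ends its coding sequence differently with and without a 35-base exon at chr6:4677163-4677197 (minus strand). The coding ends of Sgce-201 and Sgce-202 are shown with that exon in capitals.
Sgce-201: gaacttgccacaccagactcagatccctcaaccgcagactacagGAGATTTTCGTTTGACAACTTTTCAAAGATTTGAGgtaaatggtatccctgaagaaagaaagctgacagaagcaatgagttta
Sgce-202: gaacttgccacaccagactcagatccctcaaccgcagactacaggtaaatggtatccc

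Peg10 is derived from a retrotransposon and is known for a programmed shift of the ribosome by 1 base at the sequence GGGAAAC, which joins its reading frames. That heptamer occurs 1 time in Peg10-202 and is in capitals in the stretch chr6:4755282-4755378 (plus strand). The first frame has 376 codons, and Peg10-201, annotated with both frames joined, has 1005.
Peg10-202: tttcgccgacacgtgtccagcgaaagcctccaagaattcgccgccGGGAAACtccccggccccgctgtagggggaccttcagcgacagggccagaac

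RefSeq promoter windows of 300 bases (250 before to 50 after a start, GRCm38.p6) were given for 7 of the 10 members, with 10 windows in all. Sgce, Peg10 and Impact had none. Peg3 and Usp29 are transcribed away from each other, and the 146 bases between their starts, chr7:6730432-6730577, are shown on the plus strand with CCAAT in capitals. CCAAT on either strand was in 37.4% of all 32817 windows.
Peg3-Usp29: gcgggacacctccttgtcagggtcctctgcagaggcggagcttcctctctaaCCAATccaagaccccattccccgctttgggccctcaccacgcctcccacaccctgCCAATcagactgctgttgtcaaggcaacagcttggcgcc

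The window before the start of Mest-211 held TGCCGC, the core of the motif bound by the imprint-keeping zinc finger protein ZFP57, at 2 places. TGCCGC on either strand is in capitals in chr6:30737800-30738049 (plus strand). An upstream Zdbf2 start in RefSeq, where the RNA gene Platr12 also begins, held TGCCGC at 3 places, shown in capitals in chr1:63200108-63200312 (plus strand). The bases before the first Zdbf2 start of the annotation used, chr1:63273019-63273264 (plus strand), are shown with the palindrome TGACGTCA in capitals.
Mest start: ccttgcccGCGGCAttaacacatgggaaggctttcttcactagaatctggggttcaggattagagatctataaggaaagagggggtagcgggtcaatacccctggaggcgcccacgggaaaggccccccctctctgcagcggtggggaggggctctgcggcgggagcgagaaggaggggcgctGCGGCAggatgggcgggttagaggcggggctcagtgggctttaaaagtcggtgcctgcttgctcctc
Zdbf2 upstream: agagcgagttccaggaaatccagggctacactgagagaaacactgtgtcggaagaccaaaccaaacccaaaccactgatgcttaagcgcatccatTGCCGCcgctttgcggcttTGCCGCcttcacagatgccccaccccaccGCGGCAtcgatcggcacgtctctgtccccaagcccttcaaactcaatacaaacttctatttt
Zdbf2 first start: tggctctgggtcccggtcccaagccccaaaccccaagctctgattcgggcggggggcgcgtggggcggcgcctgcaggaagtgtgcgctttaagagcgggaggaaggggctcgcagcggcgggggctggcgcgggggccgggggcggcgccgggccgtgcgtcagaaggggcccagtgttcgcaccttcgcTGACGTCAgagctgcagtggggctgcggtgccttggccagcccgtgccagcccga

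TGCCGC on either strand was present in 5 of the 10 member windows, from 4 of the 7 members, Mest, Nnat, Plagl1 and Zdbf2. The Mest windows that held it overlap and share their copies, and Zdbf2 held it in the upstream window alone. The Mest window without it lies at the upstream start of Mest-210. The only Inpp5f window, also without it, lies at the outermost start, and the Inpp5f starts inside the gene had no window. So for those starts the presence of TGCCGC was not examined. TGCCGC was in 11.6% of all windows and in 21.1% of the 15956 windows with at least 8 CpG, the lowest number in a member window. TGACGTCA, searched after the sequences had been read, was in the windows of Peg3, Usp29 and Zdbf2 and in 1.79% of all windows. The Peg3 and Usp29 windows overlap and share 1 copy of it. Member windows held a median of 17 CpG and all windows a median of 7. A match to these letters is a description of the sequence alone.

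All 10 members were detected, meaning a level of 1 TPM or more in both libraries (TPM is a level corrected for transcript length and library depth). The median over the members was 38.0 TPM in replicate 1 and 36.1 in replicate 2, a mean of 37.0 ± 1.33 (SD, n = 2), and the median of 13111 detected nuclear protein-coding genes was 15.95 and 16.6. The highest member exceeded the lowest 55.5-fold. In bulk tissue, fewer cells of a type and less RNA per cell cannot be told apart. Together the members took 0.128% and 0.126% of the counts.

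Nnat encodes a small membrane protein of the endoplasmic reticulum related to the regulators of the calcium pump SERCA. It was at 322.9 TPM in replicate 1 and 306.8 in replicate 2, or 315 ± 11.4 (SD, n = 2). This was the highest level among the members, above 98.8% of detected protein-coding genes. Inpp5f, whose full-length form encodes the Sac-domain phosphoinositide phosphatase of endosomes, followed at 129.6 and 125.6 TPM (128 ± 2.84), above 94.8% of those genes. This level sums all Inpp5f transcripts, and the full-length form, Inpp5f-201, was at only 9.64 and 8.86 TPM.

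Peg3 encodes a protein with many zinc fingers that is linked to maternal care and cell death. Its level was 84.1 TPM in replicate 1 and 90.7 in replicate 2 (87.4 ± 4.66). Impact encodes an inhibitor of the amino-acid sensing kinase GCN2 and was at 83.2 and 76.5 TPM (79.9 ± 4.72). These neighbours in the order did not overlap in the first quantification, but in the second Impact was above Peg3, at 178.9 and 160.7 TPM against 124.2 and 129.6. Mest, a gene for a hydrolase-fold protein of the endoplasmic reticulum, stood at 49.2 and 46.6 TPM (47.9 ± 1.80).

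Usp29 encodes a ubiquitin-specific protease and was at 26.8 and 25.6 TPM (26.2 ± 0.856). Sgce was at 14.0 and 14.8 TPM (14.4 ± 0.537), below the median of detected protein-coding genes. The zinc finger transcription factor gene Plagl1 was at 10.7 and 9.50 TPM (10.1 ± 0.827). Zdbf2, which encodes a protein with a DBF4-type zinc finger, was at 9.47 and 9.93 TPM (9.70 ± 0.325). Plagl1 and Zdbf2 overlapped between libraries and were the only neighbours in the order that did. Peg10 was lowest, at 5.39 and 5.95 TPM (5.67 ± 0.396), above 22.7% of detected protein-coding genes.

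**Figure D1:**
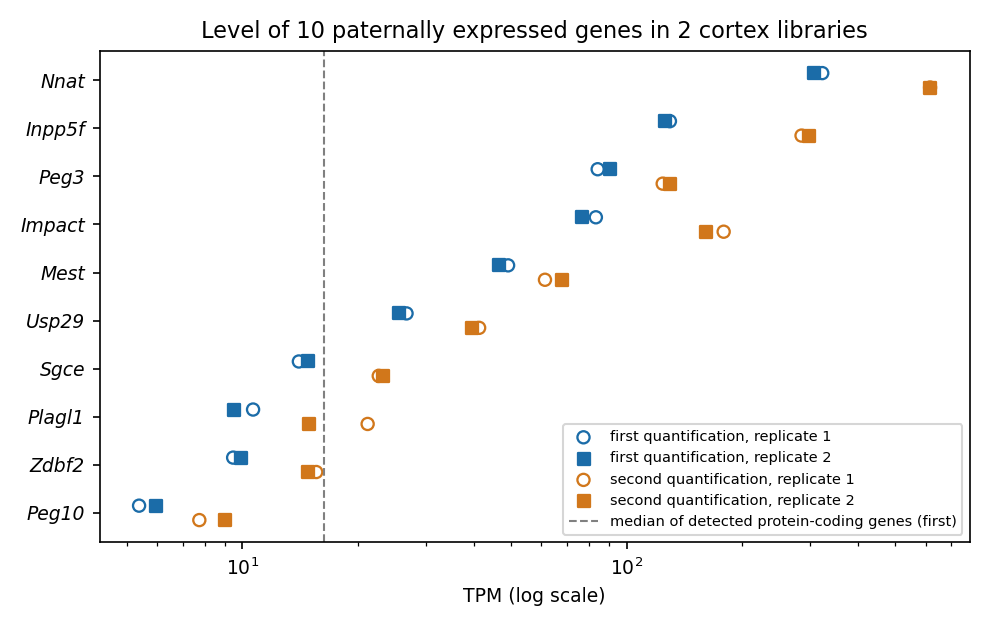
Level of each member in TPM on a log axis, 1 row per gene, with open circles for replicate 1 and filled squares for replicate 2, in blue for the first quantification and orange for the second; the dashed line is the mean over the libraries of the median of detected protein-coding genes. Nnat is highest near 315 TPM and Peg10 lowest near 5.67, and every member is higher in the second quantification, by 1.35 to 2.28 times beside a median of 1.53 over detected protein-coding genes.

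The members lay in 8 separate domains. Peg3 (chromosome 7, 6703892 to 6730431, minus strand) and Usp29 (6730578 to 6967219, plus strand) start 146 bases apart, and Sgce (chromosome 6, 4674350 to 4747207, minus strand) and Peg10 (4747306 to 4760517, plus strand) start 98 bases apart. The level of Peg3 was 3.14 times that of Usp29 in replicate 1 and 3.55 times in replicate 2. The level of Sgce was 2.60 and 2.49 times that of Peg10. So within both head-to-head pairs the genes differed in level in the same direction in both libraries.

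The remaining members are Mest (chromosome 6, 30723547 to 30748465, plus strand), Nnat (chromosome 2, 157560078 to 157562522, plus), Plagl1 (chromosome 10, 13060504 to 13131694, plus), Impact (chromosome 18, 12955852 to 12992950, plus), Inpp5f (chromosome 7, 128611328 to 128696425, plus) and Zdbf2 (chromosome 1, 63273265 to 63314576, plus). Nnat lies wholly inside Blcap on the opposite strand, and Mest overlaps the 3' neighbour Copg2 by 912 bases, also on the opposite strand. These overlaps are of whole gene spans, and the overlap of exons was not computed. No source used here states whether counting used strand, so whether any reads were shared between these genes cannot be told. Blcap was at 63.3 and 62.5 TPM, and Nnat exceeded it 5.10 and 4.91 times. Copg2 was at 25.0 and 25.3 TPM, and Mest exceeded it 1.97 and 1.84 times.

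No member passed the fold between the libraries, which was a log2 TPM ratio of 0.25 or more in either direction with 0.1 added to each TPM. All 10 had the mean of 100 expected counts needed for this call. Among 12835 such genes, 1222 were higher in replicate 2 (9.52%), 463 were lower (3.61%) and 13.1% were called in either direction, so 0 of 10 is near the background. With TMM factors the split over all genes was 529 higher and 354 lower, and with DESeq2 size factors 461 and 412. The log2 ratios of the members ran from -0.17 for Plagl1 to 0.14 for Peg10, with a median of -0.06 beside 0.04 for all genes tested. The median size of the ratio, without its sign, was 0.0761 for the members and 0.0923 for all genes tested.

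Counts gave the same picture for 8 members and another direction for 2. Ratios of CPM (counts scaled to equal library totals) carried 95% Clopper-Pearson intervals that cover counting error only, since without molecular identifiers several reads can stem from 1 molecule. These lay below 1 for 4 members: Nnat at 0.948 (0.917 to 0.981), Inpp5f at 0.961 (0.931 to 0.993), Impact at 0.939 (0.896 to 0.984) and Usp29 at 0.928 (0.877 to 0.981). The other 6 held 1, and none lay above it. The share of all genes tested whose interval leaves out 1 was not computed, so these 4 members are not set against a background. Peg3 was higher in replicate 2 by TPM (log2 ratio 0.11) but level by CPM, with a ratio of 0.995 (0.971 to 1.02). Plagl1 was lower by TPM (log2 ratio -0.17) but had a CPM ratio of 1.11 (0.998 to 1.23).

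**Figure D2:**
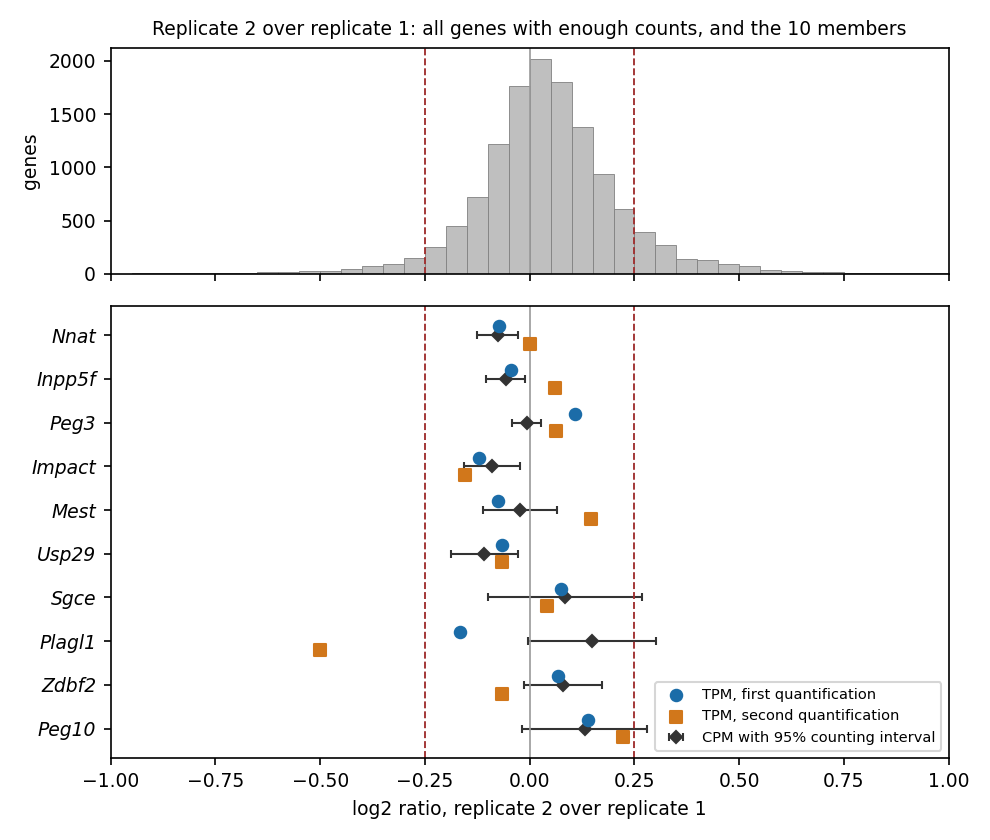
Top, number of genes by log2 TPM ratio of replicate 2 over replicate 1, for genes with a mean of 100 or more expected counts and a ratio between -1 and 1. Bottom, the same ratio for each member by TPM in the first (circles) and second (squares) quantification and by CPM with its 95% counting interval (diamonds); dashed lines mark the fold of 0.25, which Plagl1 in the second quantification passes at -0.50.

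The lower Plagl1 TPM in replicate 2 lay in transcripts other than its main one. Plagl1-202, the transcript of 704 codons, was higher in replicate 2, at 5.99 and 6.88 TPM from 634.6 and 699.8 expected counts. The other 24 Plagl1 transcripts together were at 4.69 and 2.62 TPM, on only 43.4 and 27.3 expected counts. In the second quantification Plagl1-202 stood at 9.30 and 10.1 TPM and the others at 11.9 and 4.84, from 43.8 and 51.9 estimated counts. The gene was therefore lower in replicate 2 by TPM in both quantifications while its main transcript was higher in both. The deposited point value of Plagl1 lay below its own deposited interval in both libraries, at 10.67 TPM beside 11.7 to 16.8 in replicate 1 and 9.50 beside 11.4 to 16.0 in replicate 2.

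Peg3 differed in the other direction, being higher in replicate 2 by TPM, but here too the difference lay in transcripts other than the main one. Peg3-201, the form of 1571 codons, was at 65.9 TPM in each library, while the other Peg3 transcripts together were at 18.2 and 24.8. Among these, Peg3-202, a 733-base transcript annotated as subject to nonsense-mediated decay, was at 1.16 TPM from 15.1 expected counts in replicate 1 and 8.86 TPM from 110.6 in replicate 2. The second quantification gave Peg3-202 8.45 and 14.3 TPM.

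The libraries differed in markers of tissue outside the cortex and of blood. All 8 choroid plexus and ependyma markers were higher in replicate 2, with a summed level of 11.3 TPM in replicate 1 and 317 in replicate 2, of which Ttr made 7.35 and 303.5; none was at 0 in either library. All 6 striatal markers were lower in replicate 2, with sums of 149 and 104 TPM, as were all 4 erythroid markers, with sums of 1158 and 801. The 5 glutamatergic neuron markers summed to 1916 and 1951 TPM and the 5 markers of GABAergic interneurons to 353.6 and 353.0, so the defining genes of cortical neurons were present in both libraries. The 6 mural and fibroblast markers summed to 125 and 138 TPM. The part of these differences in the members' ratios was not tested. The libraries held 31254528 and 30218308 expected counts.

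The annotation gives the members 96 transcripts. In 7 of the 10 members the same transcript had the highest mean TPM in both quantifications, and by estimated counts it was 8. The exceptions by TPM were Inpp5f, Nnat and Peg10. Between the libraries the top transcript was the same for 9 members when taken from the first quantification, and for all 10 when taken from the second.

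Inpp5f RNA came mainly from starts inside the gene. Transcripts from the outermost start, Inpp5f-201 and Inpp5f-202, held 7.52% of the gene's TPM in replicate 1 and 7.27% in replicate 2 in the first quantification, and 4.90% and 4.42% in the second. Inpp5f-201, which encodes the full 1132 codons, was at 9.64 and 8.86 TPM in the first quantification. Inpp5f-203 and Inpp5f-208 have 505 and 441 codons. Inpp5f is known for paternally expressed transcripts that begin in an intron, whereas the full-length form is read from both copies. The late start shared by Inpp5f-203 and Inpp5f-209 held 45.6% and 47.4% in the first quantification and 67.8% and 68.2% in the second. The start of Inpp5f-208, 943 bases before it, held 46.4% and 40.8%, and 23.7% and 20.2%. So the starts at these sites carried most Inpp5f RNA in each library and each quantification, and the outermost start carried less than 8%.

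The forms within the shared late start could not be fixed. Inpp5f-209, of 559 bases, was at 0 in the first quantification and at 106.6 and 122.4 TPM in the second, yet from only 393.5 and 415.7 estimated counts. Inpp5f-203, of 3220 bases, had 4109 and 3652 estimated counts there and 86.7 and 80.7 TPM. By counts Inpp5f-203 was the top transcript in both quantifications. A processed pseudogene of 284 bases, Gm43580, lies on the same strand within Inpp5f. It held 250 and 209 expected counts in the first quantification and 0 TPM in the second.

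Neuronatin (Nnat) has known splice forms, called alpha and beta, which differ by a middle exon. Nnat-202 has the whole exon of 81 bases and 81 codons, Nnat-210 has 27 bases of it and 63 codons, and Nnat-205 has no middle exon and 54 codons. Their shares depended on the quantification. In the first, transcripts without the middle exon, which include Nnat-205, held 64.0% and 58.4% of the gene's TPM, those with the whole 81-base exon 30.7% and 35.5%, and Nnat-210 with its 27-base part was at 0. In the second, transcripts without the exon held 0% and 0.002%, those with the whole exon 16.5% and 6.25%, and Nnat-210 64.1% and 65.8%. Nnat-203, a retained-intron transcript of 599 bases, held 1.83% and 1.72% in the first quantification and 15.2% and 23.4% in the second. The quantifications placed the largest share on different forms, in both libraries alike. The gene's level was 616.1 and 616.5 TPM in the second quantification, and in the first the deposited point value lay outside its own interval in both libraries, at 322.9 beside 306 to 321 in replicate 1.

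Mest came mainly from the start that is known to be imprinted. Transcripts beginning at 30738050 to 30738055 held 97.2% and 98.2% of Mest TPM in the first quantification and 95.2% and 74.3% in the second. Mest-211, which encodes 335 codons, held 84.1% and 87.3%, and 87.8% and 66.2%. The start of Mest-207 and Mest-210, 4596 and 4544 bases upstream of that of Mest-211, was at 0 in the first quantification, while the second gave it 0.822% in replicate 1 and 21.2% in replicate 2, from 17.0 and 348.8 estimated counts. So replicate 2 of the second quantification alone gave this start more than 1% of the gene's TPM. Mest-202 held 0% and 1.26%, and 4.74% and 3.87%. Mest-204, a processed transcript of 417 bases, held 13.1% and 9.63% in the first quantification and 2.63% and 4.19% in the second. The microRNA miR-335 lies in a Mest intron, and its 98-base hairpin had 0 counts in both libraries; transcripts of 99 bases or less have an effective length of 0 in the first quantification, so these tables cannot show it.

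**Figure D3:**
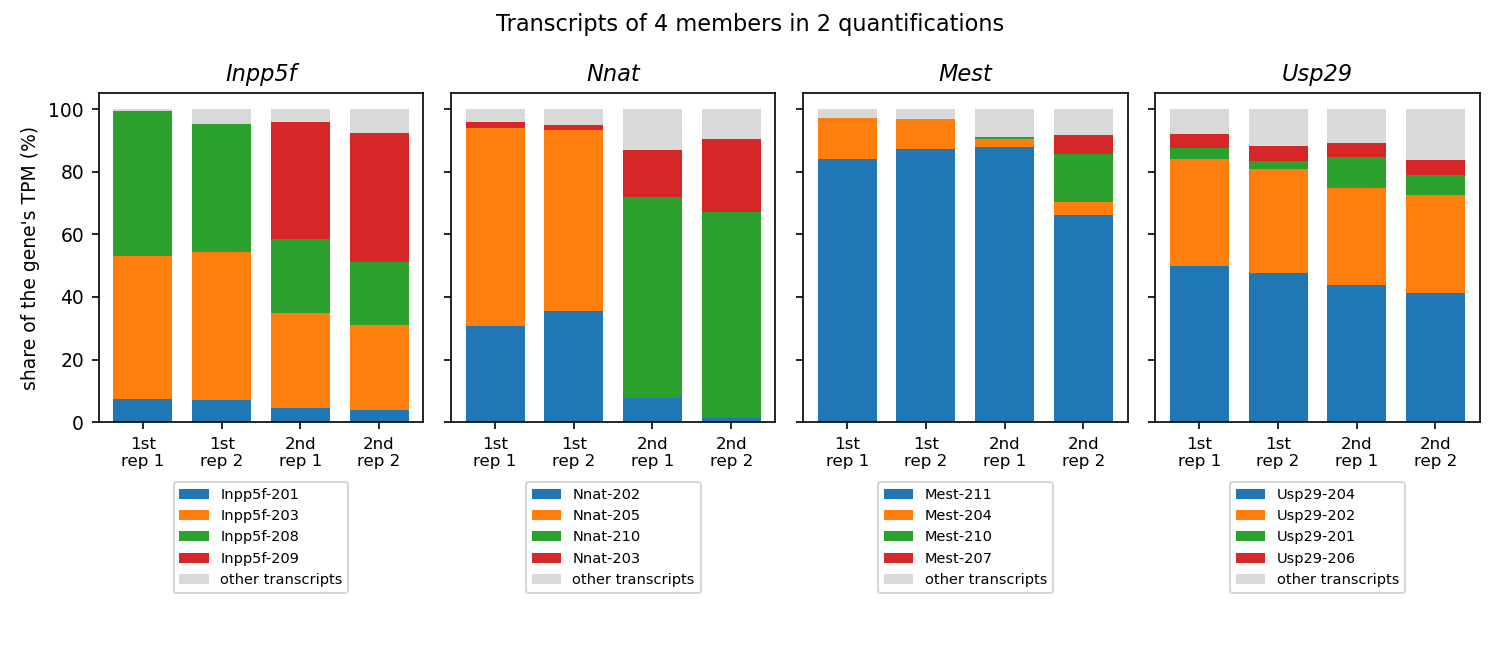
Share of the gene's TPM (percent) held by each named transcript of Inpp5f, Nnat, Mest and Usp29, as stacked bars for replicates 1 and 2 in the first (1st) and second (2nd) quantification, with the remaining transcripts in grey. Bars of Usp29 look alike in all 4 columns, Inpp5f-209 and Nnat-210 appear in the second quantification alone, and Mest-210 holds 15.1% in replicate 2 of the second.

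Usp29 and Zdbf2 kept their top forms across quantifications. Transcripts starting beside Peg3 held 93.2% and 93.8% of Usp29 TPM in the first quantification and 84.1% and 86.3% in the second. They include Usp29-204, which encodes all 869 codons and held 49.9% and 47.8%, and Usp29-202 of 198 codons, with 34.2% and 33.2%. Zdbf2 transcripts from the first annotated start held 77.3% and 64.0% of the TPM, and 85.1% and 81.3% in the second quantification. Zdbf2-202 held 53.7% and 42.3%, and Zdbf2-201, which starts 17473 bases further in and has the same 2493 codons, 22.7% and 36.0%. Zdbf2-203, of 611 bases, held 23.6% and 21.8% from only 23.5 and 21.8 expected counts. Zdbf2 is also known for a long form, Liz, that starts upstream and is active in the early embryo. Platr12, whose start lies in that upstream window, had 0 counts in both libraries, and a count of 0 allows up to 3 counts, or 0.0960 and 0.0993 CPM, for counting error only.

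Sgce transcripts with the 35-base exon, which is in Sgce-201, held 50.2% and 60.6% of the TPM of the transcripts that span it, and 58.0% and 64.9% in the second quantification. The 27-base exon at chr6:4690469-4690495 was in 33.7% and 21.3%, and in 35.7% and 33.7%. Sgce-201 held 41.5% and 48.5% of the gene's TPM, Sgce-202 held 19.3% and 20.9%, and Sgce-205 14.0% and 9.80%. In the second quantification Sgce-202 had 4.25% and 6.63%, Sgce-205 was at 0 and Sgce-207 held 13.9% and 11.96%. A 71-base exon that contains the 35 bases, in Sgce-203 and Sgce-209, was in 4.05% and 0% of the spanning TPM, and in 8.52% and 0% in the second quantification. The share of the 35-base exon thus differed little between the quantifications. The split among Sgce-202, Sgce-205 and Sgce-207, which lack both the 35-base and the 71-base exon, moved with the quantification. Of these transcripts, Sgce-205 and Sgce-207 have the 27-base exon and Sgce-202 lacks it.

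Peg10 values cannot tell its reading frames apart. Peg10-203 held 100% of the TPM in the first quantification, and Peg10-202 held 100% and 89.5% in the second. These transcripts differ by 100 bases at the start and share the rest. The annotation gives Peg10-202 the first frame of 376 codons and Peg10-203 the second of 604 codons. Peg10-201, which leaves out the bases 4755331 to 4755332 within GGGAAAC, was at 0 in both quantifications.

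Impact-201, with all 318 codons, held 53.9% and 55.0% of Impact TPM, and 36.0% and 37.7% in the second quantification. By counts it was far ahead, with 3369 and 3040 expected counts among 3762 and 3416. Short transcripts made the rest. Impact-202 held 10.3% and 10.6%, and 15.4% and 18.7% in the second quantification. The retained-intron form Impact-207 held 9.72% and 15.2%, and 8.80% and 14.3% in the second. Impact-204, of 509 bases, held 0.733% and 0.771%, but 22.4% and 16.2% in the second. Impact-206 begins upstream and held 15.2% and 4.14%, and 4.71% and 0% in the second. Peg3-201 held 78.3% and 72.7%, and Peg3-204, a retained-intron form, 12.3% and 11.3%. Plagl1-202 held 56.1% and 72.4%, Plagl1-208 10.3% and 4.00%, and Plagl1-213 0% in the first quantification and 12.3% and 3.10% in the second.

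Among the 50 genes listed as neighbours of the members, 47 were matched, 28 were detected and 27 had enough counts for the fold. Of these, 2 were called higher in replicate 2 and 1 lower, beside 9.52% and 3.61% of all genes tested. Zim1, the maternally expressed neighbour of Peg3, was at 6.28 and 7.64 TPM (log2 ratio 0.28), Ttc39c near Impact at 8.82 and 11.4 (0.37), and Casd1 beside Sgce at 29.8 and 23.9 (-0.31). The CPM intervals of all 3 held 1, at 1.09 (0.941 to 1.26), 1.11 (0.972 to 1.27) and 0.956 (0.896 to 1.02). In the second quantification Zim1 had the other sign, at a log2 ratio of -0.26.

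Around Peg3 and Usp29, Zim2, Zim3, Zfp264 and Aurkc stayed below 1 TPM. Zscan18, listed with this domain, was at 10.9 and 10.6 TPM but lies far from it, at chr7:12768090-12803635. Beside Mest, Klf14, Tsga13, Cpa1, Cpa4 and Cpa5 were also below 1, with Klf14 highest at 0.53 and 0.29 TPM. In the Peg10 and Sgce domain the highest genes were Dync1i1, a dynein chain, at 79.0 and 79.4 TPM and Ppp1r9a, which encodes the actin-binding protein neurabin, at 59.8 and 55.4. Near Inpp5f, Tial1 reached 48.4 and 47.7 TPM, Sec23ip 16.1 and 16.5, and Mcmbp 12.9 and 12.4. Osbpl1a, which encodes an oxysterol-binding protein and adjoins Impact, was at 146.9 and 144.0 TPM, above Impact. Near Zdbf2, Eef1b2 was at 227.4 and 240.7, Adam23 at 72.3 and 75.8 and Ndufs1 at 66.9 and 63.2, all above Zdbf2, while Gpr1 was at 0.44 and 0.39. Ltv1 by Plagl1 was at 10.8 and 10.2, and by Nnat the kinase gene Src was at 39.0 and 42.1 and Ctnnbl1 at 12.4 and 11.3.

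**Figure D4:**
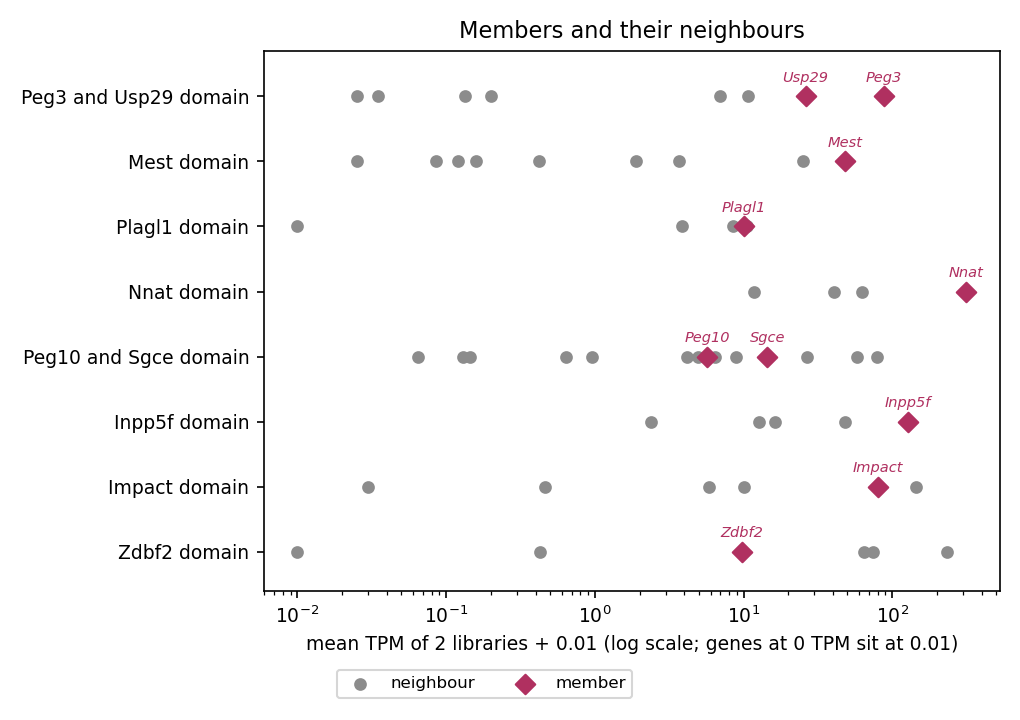
Mean TPM over the 2 libraries of each member (diamonds) and of the listed neighbours (grey circles), 1 row per domain, on a log axis with a small offset so that genes at 0 can be drawn. Peg3, Usp29, Mest, Nnat and Inpp5f lie above all their plotted neighbours, whereas Zdbf2 at 9.70 TPM lies below Eef1b2, Adam23 and Ndufs1.

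The products that work with the members were measured too: of 51 listed partners and paralogs 50 matched, 42 were detected and 38 had enough counts. Of these, 2 were called higher in replicate 2 and none lower, beside the same 9.52% and 3.61%. Eif2ak4, which encodes the kinase GCN2 that Impact restrains, was at 9.72 and 11.9 TPM (log2 ratio 0.29), and its CPM ratio was 1.08 (0.986 to 1.19). Impact exceeded it 8.56 and 6.43 times in the first quantification and 12.9 and 10.2 times in the second. Lrp5, a Wnt coreceptor, was at 4.72 and 6.04 TPM (0.35), and its CPM interval lay above 1, at 1.23 (1.09 to 1.39). Lrp6, its paralog, was at 20.5 and 20.3.

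The calcium pump gene Atp2a2 was at 294.8 and 282.2 TPM, while the muscle regulators Pln and Sln were at 1.43 and 1.04, and at 0.04 in each library. Of 11 genes of the sarcoglycan and dystroglycan complex 9 were detected: Dag1 reached 63.1 and 61.2 TPM, Dtna 49.4 and 48.4, Dtnb 35.7 and 38.5, Dmd 29.0 and 26.6, and Sgcb 28.8 and 28.4. The muscle sarcoglycan gene Sgca was at 0.19 and 0 TPM, and Sgce was above Sgcd, at 8.33 and 8.51. All 6 of the listed phosphoinositide phosphatase genes were detected, with Synj1 highest at 113.5 and 109.6 TPM. Sacm1l, Ocrl, Inpp5b, Synj2 and Fig4 lay between 15.4 and 23.0.

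Of 15 other retrotransposon-derived genes 13 were detected. Rtl8a was at 129.2 and 133.2 TPM, Rtl8b at 114.1 and 115.4 and Rtl8c at 81.6 and 85.2, closely related copies among which the counting could split reads. Pnma2 was at 44.3 and 48.6, Rtl6 at 31.4 in each library, Pnma3 at 14.4 and 13.8 and the synaptic gene Arc at 10.8 and 11.4, all above Peg10. Rtl1 was at 0.06 and 0.09. Plagl1 exceeded its paralog Plagl2 5.01 and 3.93 times, and Plag1 was at 1.39 and 0.89 TPM. Usp37, the paralog of Usp29, was at 11.5 and 10.7 TPM, and Usp26 at 0. Of the Peg3 death pathway partners, Bax was at 43.8 and 46.5 and Siah1a at 15.6 and 17.0, and in the GCN2 pathway Atf4 was at 46.9 and 47.6 and Eif2s1 at 29.9 and 31.4.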

How the data were processed

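Total RNA of 2 cortex libraries was sequenced, and per the deposited file descriptions the authors mapped it on mm10 with GENCODE M21. The deposited first quantification holds expected counts, TPM, posterior mean TPM with interval bounds of unstated level, and transcript shares in percent, per the file headers. The deposited second quantification holds estimated counts and TPM per transcript, per the file headers, and these were summed by gene. Programs, versions and strandedness: not given in the sources used here. Of these, the first was made from transcriptome alignments and the second from reads and an index, per the deposited descriptions. Each TPM is scaled over all records, short RNAs included, which lowers protein-coding TPM in the first quantification.

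Members, lists and settings were chosen with earlier results of these data known. All 10 members are named, with every transcript holding 10% or more in either quantification, the known forms of Mest, Inpp5f and Nnat, and list genes at 10 TPM or more or past the fold; low list genes were named after their values were seen. The log2 ratio used 0.1 added to TPM, a mean of 100 expected counts and a fold of 0.25. TMM factors came from edgeR 4.0.16 and size factors from DESeq2 1.42.0, as scalings without tests. The ratio script was tested on simulated data. Peg3os, Copg2os2, Hymai, Gcn1 and Gnasas1 had no symbol match and were not analysed here, and some list genes and sequences are not reported here.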

Additional observations from a re-analysis of the deposited data

How the results depend on the processing

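The median member level was 37.0 TPM, 37.4 with posterior means, 52.5 in the second quantification and 76.3 when rescaled to protein-coding genes. Leaving out either library gave 36.1 to 38.0. The order of the members was the same under posterior means and rescaling, and the second quantification exchanged Peg3 and Impact. The number of members past the fold was 0 with TMM factors, DESeq2 size factors, spike-in totals and a pseudocount of 1, and 1 in the second quantification. There Plagl1 was called at a log2 ratio of -0.50, beside 2129 of 12835 genes tested (16.6%), so 1 of 10 is near the background. Other count minimums or a larger fold cannot raise the number of members called. Genes past the fold numbered 1685, and 883 with TMM factors, 873 with DESeq2 size factors, 1078 over spike-in totals, 4772 with a minimum mean of 10 counts, 12637 without a minimum and 283 at a log2 ratio of 0.5. The latter 3 follow from testing more genes or asking a larger fold, and for the scalings the cause was not tested. The number of members with the same top transcript was 7 without either library and 8 by estimated counts. Ratios between the libraries need both, so none could be made without a library. No paired analysis was possible because there is only 1 group. Sgce rests on 484 and 496 counts, Plagl1 on 678 and 727 and Peg10 on 716 and 758, which limits their transcript shares.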

Other observations

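Other imprinted genes were measured beside the members, and some of them are imprinted in only some tissues. Of 43 listed paternally or maternally expressed genes 42 matched, 33 were detected and 30 had enough counts for the fold between the libraries. Of these, 4 were called higher in replicate 2 and none lower, beside 9.52% and 3.61% of all genes tested. The growth factor gene Igf2 was at 100.7 TPM in replicate 1 and 131.2 in replicate 2 (log2 ratio 0.38), the cell cycle inhibitor gene Cdkn1c at 6.64 and 9.75 (0.55), the RNA gene H19 at 2.10 and 2.97 (0.48) and Zim1 as given above. The CPM intervals of Igf2 (1.24 to 1.35), Cdkn1c (1.08 to 1.56) and H19 (1.07 to 1.90) lay above 1. Igf2, Cdkn1c and H19 are also in the list of genes linked to Plagl1, of which 3 of 12 tested non-members were called higher. Choroid plexus markers were higher in replicate 2 as well, at summed levels of 11.3 and 317 TPM. Of the 6 mural and fibroblast markers 4 were higher and 2 lower, and Col1a1 alone was called, at 29.8 and 38.2 TPM. The 6 immature neuron and progenitor markers, each of them higher in replicate 2, summed to 122 and 132 TPM, and Sox11 and Sox4 were called. The part of these lists in the ratios was not tested.

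In the first quantification the most abundant of these genes were maternally expressed RNA genes, the products of the Snrpn region and Gnas. Meg3 was at 1701 and 1849 TPM, Rian at 974 and 995, Snurf at 986 and 1043 (0 in both libraries of the second quantification), Snhg14 at 584.5 and 603.6, and Snrpn at 417.7 and 407.7. Gnas, which encodes the stimulatory G protein subunit, was at 910 and 944. Nnat lay below these in the first quantification, though above Snrpn in the second, and above Igf2, Nap1l5 (101.0 and 97.9) and Ndn (98.3 and 97.7). Of the 7 genes listed for keeping imprints 6 were detected, none was called, and Dnmt3a was highest at 160.8 and 173.5 TPM. Trim28 was at 123.8 and 124.0, Zfp445 at 77.3 and 80.2, and Zfp57, whose protein binds methylated TGCCGC, at 32.1 and 33.2.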
